A study of Gallus gallus with 9 samples.

Results

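A set of 50 of 13009 genes, held by 52 of 27168 probe sets with a single gene symbol, was lower in cultured chicken primordial germ cells (PGCs) after withdrawal of basic fibroblast growth factor (bFGF) and was still low after bFGF had been replaced. The members were chosen by their measured values on these 9 arrays. A probe set was taken when its mean log2 intensity was lower by 0.4 or more in -bFGF than in RAW, lower by 0.4 or more in +bFGF than in RAW, and no more than 0.25 apart between -bFGF and +bFGF. Its RAW mean intensity had to be 200 or more, and all 3 RAW arrays had to lie above the 6 other arrays. Probe sets of INSIG1, MSMO1, FDFT1 and FN1 were left out by name, which removed 3 probe sets that met the limits. Because every contrast was used for the choice, the members' changes, standard errors and intervals are given below as a description, and counts of members called by the fit describe the size of a change against the spread and are no test of it.

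The cells came from blood of Korean Oge chicken embryos at embryonic day 2.5 (stage 14 to 15) and were grown in medium with 7.5% fetal bovine serum, 2.5% chicken serum and 10 ng/ml human bFGF. RAW cells were collected at 0 h in bFGF, -bFGF cells after 24 h without it, and +bFGF cells at 48 h, when bFGF had been back for 24 h. Each group holds 3 arrays. The methods say that experiments were repeated but not that the arrays came from separate cultures, so every error and test below measures the spread between these samples, which may be technical. No group was kept in bFGF for the same hours, so time in culture and treatment cannot be told apart, and in bulk RNA fewer cells of a type and less RNA per cell cannot be told apart either.

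The expression of DAZL, a germ cell RNA-binding protein, was 39391 ± 1608 in RAW (intensity, SD, n = 3), and that of DDX4, the chicken vasa homologue, was 22161 ± 504. KIT, the receptor of stem cell factor, and the integrins ITGA6 and ITGB1 were also bright. In -bFGF and +bFGF, DAZL was 32806 ± 4038 and 35273 ± 1490, and DDX4 was 19879 ± 1219 and 21056 ± 1261. DAZL (log2 -0.27) and ITGB1 (-0.23) were called fallen on withdrawal and ITGA6 (-0.22) on the net change, while KIT and DDX4 were not called in either. The summed intensity of 23 germ cell and pluripotency genes was 121330 to 128282 in RAW, 107566 to 117510 in -bFGF and 116303 to 122763 in +bFGF, so the sum was lower on every -bFGF array than on any RAW array. The sum is weighted to bright genes such as DAZL and DDX4. Of 19 tested genes of the list, 4 were called fallen and 1 risen on withdrawal, with a median change of -0.025. The counts over all 9125 tested genes were 547 and 623. On the net change 1 of the list was called fallen, beside 169 over all, with a median of -0.009. The part of the lower sum in the members' values was not tested. No single-symbol probe set was found for NANOG or POU5F3.

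bFGF binds receptor tyrosine kinases and activates RAS and the MEK/ERK cascade, on which chicken PGCs depend for growth in culture. The cascade also induces its own inhibitors, among them sprouty proteins and dual-specificity phosphatases. The genes of the set belong to several classes: matrix and adhesion proteins, regulators of WNT and Notch signalling, kinases of the p38 branch, regulators of small GTPases, and enzymes of the ubiquitin system.

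Among the single-symbol probe sets outside the 4 symbols left out by name, 472 (378 genes) fell on withdrawal by the same limits on change, RAW level and separation of arrays. The median return in +bFGF, as a percentage of the log2 fall, was 70.2% for these, with quartiles of 40.6% and 105%, and 239 lay within 0.25 of RAW again. The 52 members made up 11.02% of them. Their return ran from -50.2% to 33.0% with a median of 9.01%, a range that the choice itself narrows. A further 44 of the 472 were at least 0.4 below RAW in +bFGF and missed another limit.

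**Figure D1:**
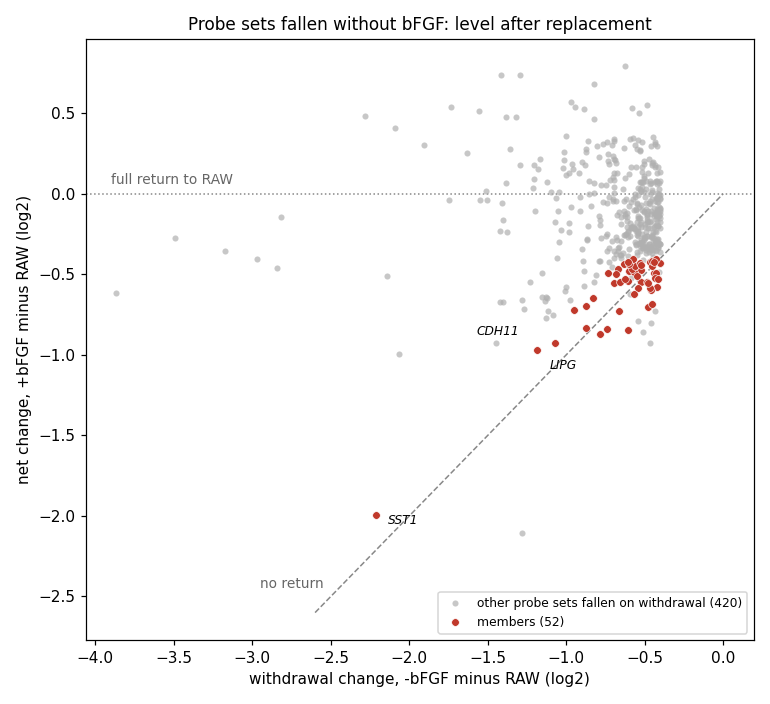
Withdrawal change (-bFGF minus RAW, log2, x axis) against net change (+bFGF minus RAW, log2, y axis) of the 472 probe sets that fell on withdrawal, with the 52 members in red and the 420 others in grey. The members lie along the dashed line of no return because they were chosen to do so, and SST1 stands far down that line at -2.21 and -1.997.

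The withdrawal change of the members ran from -2.21 to -0.40 with a median of -0.57 on the log2 scale, beside a median of 0.02 over all 19220 tested probe sets. The net change ran from -1.997 to -0.41 with a median of -0.52, beside -0.01 over all. Most changes were small, with 42 of the 52 between -0.4 and -0.7 on withdrawal and also 42 on the net change. Only SST1, LIPG and CDH11 were at or below -1 on withdrawal, and only SST1 on the net change. Members were dim to bright, with RAW means from 204 to 7209 and a median of 464, and 11 lay under 300.

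In the fit over all tested probe sets, 39 of the 52 were called fallen on withdrawal at an adjusted p under 0.05, against 5.33% of all tested probe sets called fallen and 5.4% called risen. On the net change 29 were called fallen, against 1.74% of all called fallen and 1.14% called risen. Among members named below, USP30, ATP11B, OXSR1, AFDN, MAP2K6, TMEM135, TRAIP, SCN2B, SCAF8 and TLR2A were called in neither comparison. TMEFF1, GTF2F2, LHFPL1, NCAN, AGRN, GALNT6, RGCC, COL13A1 and the dimmer COL2A1 member probe set were called only on withdrawal. SELENOW and USE1 were called only on the net change. On replacement none of the 52 was called, against 3.37% of all called risen and 3.42% called fallen. In all tested probe sets, the 3 RAW arrays lay above the 3 -bFGF arrays in 14.2% and above the 3 +bFGF arrays in 11.8%. These shares are given as background and nothing is read from them, since the same contrasts chose the members. The net count fell to 15 without RAW 1, 12 without RAW 2, 13 without +bFGF 2 and 18 without +bFGF 3, and the number of probe sets meeting the rule rose to 98 without RAW 1. The 95% interval of the replacement change extended by a median of 0.29 to each side, and for 35 of the 52 it reached above 0.25. For 1 member it reached a full return. The rule holds the centre of each of these intervals within 0.25, so they are a description and exclude no size of return.

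**Figure D2:**
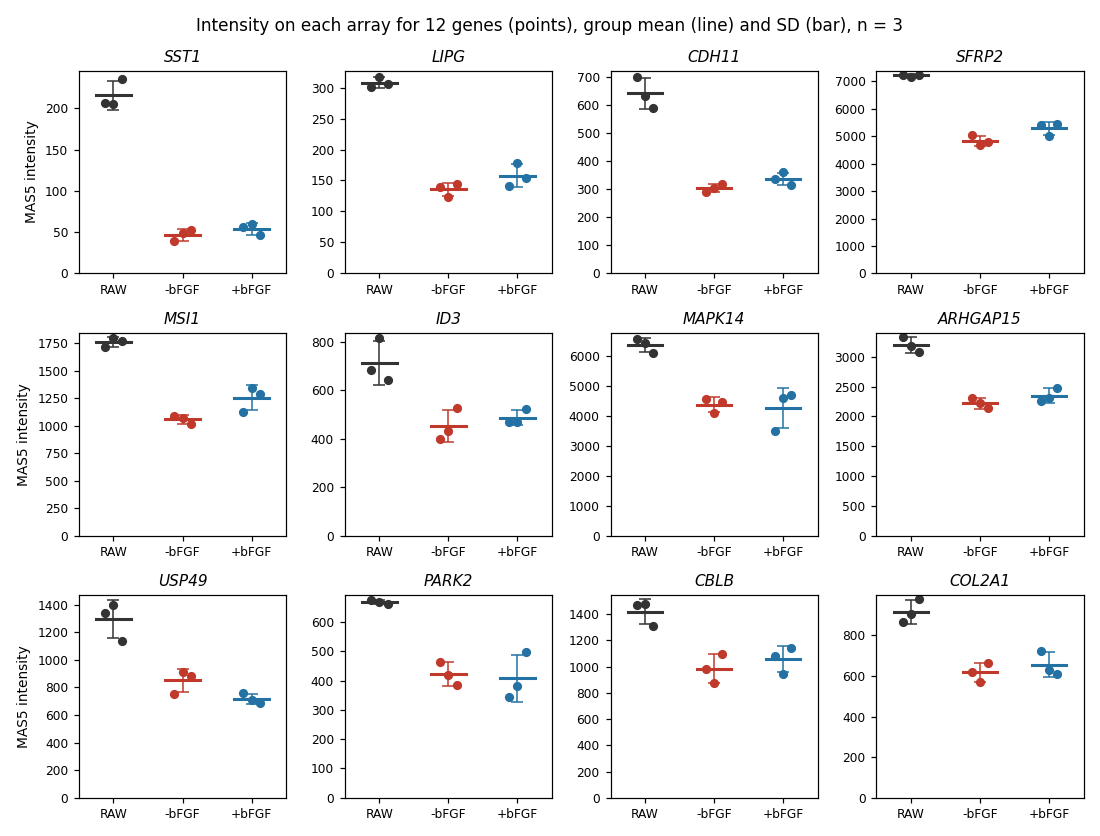
MAS5 intensity (y axis, linear, starting at 0) on each array for 12 of the genes in RAW, -bFGF and +bFGF, with points for arrays, a line for the mean and a bar for the SD (n = 3). In every panel the 3 RAW arrays lie above the 6 others, and the -bFGF and +bFGF arrays lie close to each other.

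The largest change was in SST1, which encodes the somatostatin precursor, a peptide hormone that restrains secretion. Its intensity was 206, 205 and 236 on the RAW arrays, 39.0, 49.0 and 52.3 on the -bFGF arrays, and 56.7, 60.05 and 46.0 on the +bFGF arrays. The -bFGF and +bFGF arrays overlapped and lay far below RAW. The mean was 4.64-fold lower in -bFGF and 3.99-fold lower in +bFGF, with log2 changes of -2.21 ± 0.22 and -1.997 ± 0.22 (SE). The low values sit close to array background, which was 32.0 to 40.5 (95th percentile of 744 probe sets without a chicken gene prefix), and 1 -bFGF array lay inside that range. With an offset of 50 before log2 the changes were -1.46 and -1.35, so the folds depend on how low values are treated. A second SST1 probe set, of similar mean brightness over all arrays, was not called. It read 86.3 ± 20.5 in RAW, 77.7 ± 30.5 in -bFGF and 80.4 ± 12.3 in +bFGF.

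LIPG encodes endothelial lipase, a secreted phospholipase. Its arrays read 300.2, 317 and 305 in RAW, 139, 123 and 144 in -bFGF, and 142, 178 and 154 in +bFGF. RAW stood well apart, and all +bFGF arrays but the first were above every -bFGF array. The level was 2.27-fold lower in -bFGF (log2 -1.19 ± 0.14, SE) and 1.96-fold lower in +bFGF (-0.97 ± 0.14).

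CDH11 encodes cadherin-11, a calcium-dependent adhesion molecule best known in mesenchyme. Its intensity was 700.4, 632 and 588 in RAW, 290.0, 304 and 319 in -bFGF, and 335, 360 and 316 in +bFGF. All RAW arrays exceeded the others by a wide margin, and the lowest +bFGF array lay within the -bFGF range. The fall was 2.10-fold in -bFGF (log2 -1.07 ± 0.10, SE) and 1.90-fold in +bFGF (-0.93 ± 0.10). A dimmer CDH11 probe set, which did not meet the rule, changed by -1.11 ± 0.28 on withdrawal and was called fallen. It changed by -0.99 ± 0.28 net, which was not called.

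The other matrix, adhesion and surface genes moved less. COL2A1, the fibrillar collagen of cartilage, has a pair of member probe sets. The brighter read 865, 904 and 978 in RAW, 619, 571 and 664 in -bFGF, and 725, 631 and 611 in +bFGF. All RAW arrays were above the rest, and the -bFGF and +bFGF ranges overlapped. It changed by -0.57 ± 0.09 (SE) on withdrawal and -0.48 ± 0.09 net, and the dimmer by -0.57 ± 0.12 and -0.41 ± 0.12. SDC2, a heparan sulfate proteoglycan of the cell surface, read 658, 626 and 755, then 541, 499 and 447, then 548, 469 and 506.5 in the same order of groups. Its RAW arrays again stood apart, while the other groups overlapped.

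NCAN, the chondroitin sulfate proteoglycan neurocan, changed by -0.70 ± 0.15 (SE) on withdrawal and -0.56 ± 0.15 net. MME, the membrane peptidase neprilysin, changed by -0.62 ± 0.13 and -0.53 ± 0.13. Dimmer tested MME probe sets changed by -0.10 ± 0.25 and -0.33 ± 0.25 on withdrawal and by 0.61 ± 0.25 and -0.47 ± 0.25 net, with no call. AGRN, the basement membrane proteoglycan agrin, changed by -0.58 ± 0.14 and -0.47 ± 0.14. These genes were of middle brightness, with RAW means of 320.1, 595 and 382, and the 9 genes of this class had a median change of -0.60 on withdrawal and -0.48 net. COL13A1, a transmembrane collagen, and TLR2A, a receptor for bacterial lipoproteins, met the rule narrowly. Their lowest RAW array exceeded the highest other array by 0.56% and 3.12%. Chicken TLR2 occurs as near-identical copies, so signal on the TLR2A probe set may be shared. AFDN, which links adhesion receptors to actin, had wide intervals, with a net change of -0.48 between -0.91 and -0.04, and its withdrawal change of -0.60 was -0.36 without -bFGF 1. The net change of COL13A1 was -0.42, or -0.24 without RAW 3. A dimmer tested COL13A1 probe set changed by -0.44 ± 0.27 on withdrawal and -0.06 ± 0.27 net, with no call. The summed intensity of 15 fibroblast and mesenchyme markers was 13069 to 14048 in RAW, 10478 to 10812 in -bFGF and 12057 to 13201 in +bFGF, and 8 of them, including DCN, LUM, POSTN and PDGFRA, were under array background. The sum includes COL1A2, whose large fall on withdrawal and partial return are given below. RAW was higher than -bFGF on every array and overlapped +bFGF, and the part of such cells in the values above was not tested.

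Of the secreted and developmental regulators, SFRP2 was the brightest member of all. It encodes a secreted frizzled-related protein, which binds WNT ligands. Its arrays read 7242, 7163.5 and 7223 in RAW, 5037, 4682.5 and 4771 in -bFGF, and 5394, 5016 and 5457 in +bFGF. The RAW arrays were nearly equal and well above the others, and +bFGF was slightly higher than -bFGF with overlap. SFRP2 fell 1.49-fold (log2 -0.58 ± 0.05, SE) and remained 1.36-fold lower in +bFGF (-0.45 ± 0.05). Its return was 22.6% of the fall.

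MSI1, the RNA-binding protein Musashi-1, read 1712, 1797 and 1768.5 in RAW, 1089, 1069 and 1010.4 in -bFGF, and 1127, 1342 and 1290.0 in +bFGF. Here all +bFGF arrays lay above all -bFGF arrays, the only member of which this was true. Its changes were -0.74 ± 0.07 and -0.49 ± 0.07 (SE), and the replacement change of 0.24 was just inside the limit of 0.25. Dimmer tested MSI1 probe sets, with RAW means of 452 and 171, were closer to RAW in +bFGF. They changed by -0.42 ± 0.16 and -0.42 ± 0.18 on withdrawal and by -0.19 ± 0.16 and 0.06 ± 0.18 net, with no call.

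ID3 encodes an inhibitor of basic helix-loop-helix transcription factors and is a common target of BMP signals. It read 686, 816 and 641 in RAW, 401, 434 and 528 in -bFGF, and 468, 470 and 522 in +bFGF. The RAW arrays were higher throughout, and the +bFGF values lay inside the -bFGF range. The changes were -0.66 ± 0.12 and -0.55 ± 0.12 (SE). LFNG, a glycosyltransferase that modifies Notch receptors and was named after its values were seen, read 718, 846 and 773, then 579, 535 and 587, then 561, 559 and 592, so that -bFGF and +bFGF were almost the same. Its return was 2.20% of the fall. A dimmer tested LFNG probe set changed by 0.16 ± 0.22 on withdrawal and -0.19 ± 0.22 net, with no call.

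TMEFF1, a membrane protein with follistatin-like domains, read 319, 325 and 283 in RAW but 149, 165 and 233 in -bFGF and 253, 148 and 128 in +bFGF. A single array in each of the latter groups was much higher than its companions. Its changes were -0.79 ± 0.23 (SE), which was called, and -0.87 ± 0.23, which was not. The latter was the most negative net change after those of SST1, LIPG and CDH11. MXD4, a partner of MAX that represses transcription, changed by -0.47 ± 0.13 and -0.59 ± 0.13, and RGCC, a cell cycle regulator, by -0.56 ± 0.15 and -0.45 ± 0.15. A dimmer tested MXD4 probe set changed by -0.28 ± 0.18 on withdrawal and -0.07 ± 0.18 net, with no call.

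**Figure D3:**
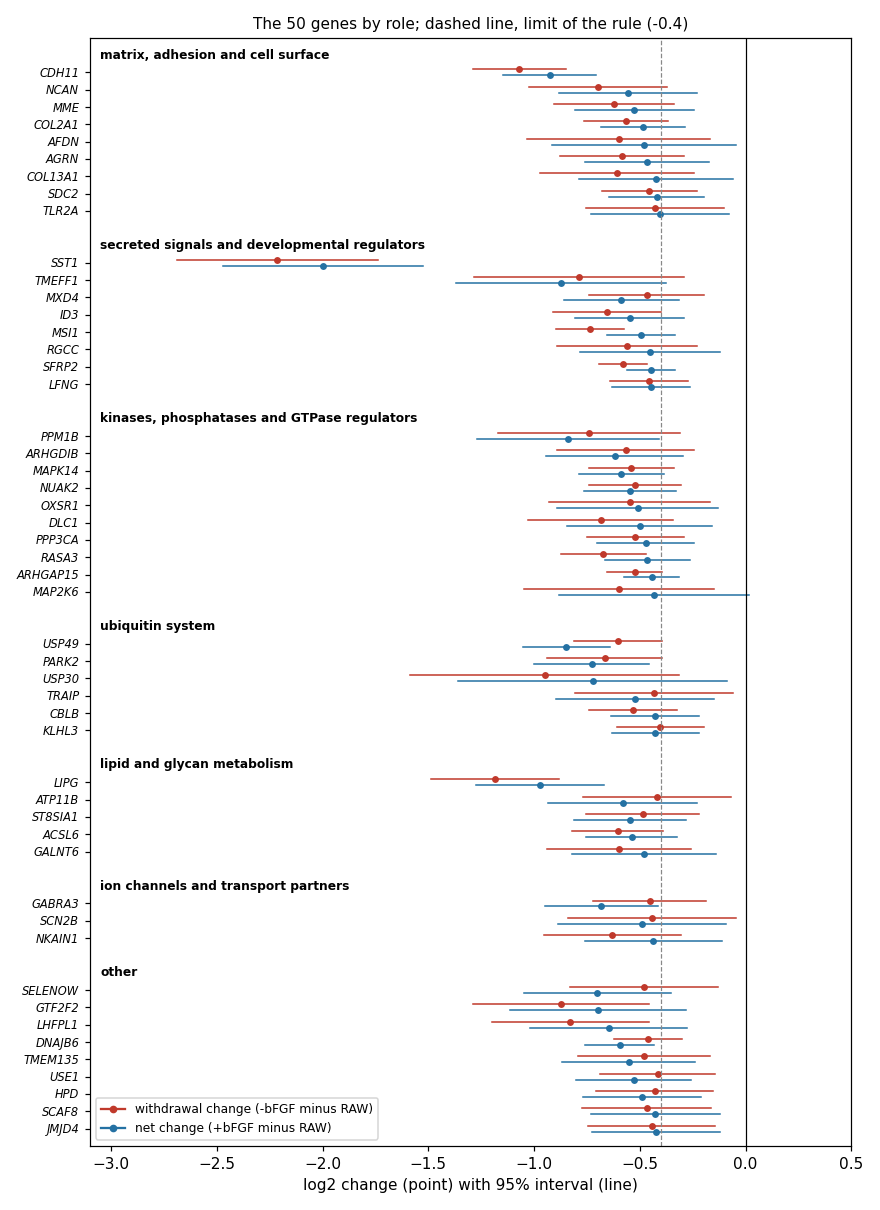
Log2 change from RAW (x axis) of the 50 genes, grouped by known role, on withdrawal (red) and net (blue), with the 95% interval of the fit. Red and blue points lie close together in each row because the rule limits their difference to 0.25, and USP30, TMEFF1, SST1, MAP2K6 and AFDN have the widest intervals.

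Among the 10 kinases, phosphatases and GTPase regulators, the median change was -0.56 on withdrawal and -0.51 net. MAPK14, the stress-activated kinase p38 alpha, read 6566, 6405 and 6078.5 in RAW, 4562, 4084 and 4455 in -bFGF, and 3496.5, 4589 and 4696 in +bFGF. RAW was above all others, and the lowest +bFGF array was below every -bFGF array. MAPK14 fell 1.45-fold (log2 -0.54 ± 0.09, SE) and was 1.503-fold lower in +bFGF (-0.59 ± 0.09). A much dimmer MAPK14 probe set, with a RAW mean of 288, changed by 0.11 ± 0.16 on withdrawal and -0.11 ± 0.16 net, with no call. MAP2K6, which phosphorylates p38 kinases and was also named after its values were seen, read 245, 224 and 205, then 177, 174 and 105, then 133, 187 and 184. Its changes were -0.60 ± 0.21 and -0.43 ± 0.21, neither of them called, and 1 low array in each later group widened the spread. They were -0.35 without -bFGF 3 and -0.27 without +bFGF 1. The 95% interval of the net change ran from -0.88 to 0.02. A second MAP2K6 probe set of similar brightness changed by -0.18 ± 0.16 and -0.25 ± 0.16, with no call.

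PPP3CA, the catalytic subunit of calcineurin, read 1500.4, 1421 and 1112 in RAW, 956, 928 and 904 in -bFGF, and 866, 970.1 and 1056 in +bFGF. The lowest RAW array was 5.35% above the highest +bFGF array. Its changes were -0.52 ± 0.11 and -0.47 ± 0.11 (SE). PPM1B, a phosphatase of the PP2C class, changed by -0.74 ± 0.20 and -0.84 ± 0.20 from a RAW mean of 245. NUAK2, a relative of AMP-activated kinase, changed by -0.52 ± 0.10 and -0.55 ± 0.10. A dimmer tested NUAK2 probe set changed by -0.25 ± 0.22 and -0.34 ± 0.22, with no call.

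RASA3, a GTPase activator of RAS, read 1051, 955 and 1047 in RAW, 594, 718 and 608 in -bFGF, and 806, 688 and 721 in +bFGF. All RAW arrays lay above the rest, and +bFGF overlapped -bFGF. It changed by -0.67 ± 0.09 and -0.46 ± 0.09 (SE), a return of 30.9%. Dimmer tested RASA3 probe sets changed by -0.31 ± 0.17 and -0.06 ± 0.21 on withdrawal and by -0.45 ± 0.17 and 0.10 ± 0.21 net, with no call. ARHGAP15, a GTPase activator of RAC, read 3338, 3177 and 3073, then 2314.5, 2218 and 2132, then 2262, 2301 and 2483.5, with changes of -0.52 ± 0.06 and -0.44 ± 0.06.

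The 6 genes of the ubiquitin system had a median net change of -0.62. USP49, a deubiquitinating enzyme, read 1342, 1401 and 1138 in RAW, 756, 912 and 884 in -bFGF, and 757.5, 708 and 685 in +bFGF. The +bFGF mean was lower still, although the groups overlapped at 1 array, with changes of -0.60 ± 0.10 and -0.85 ± 0.10 (SE). Its replacement change of -0.24 was the most negative of the members and was not called. Dimmer tested USP49 probe sets changed by -0.35 ± 0.20, -0.22 ± 0.20 and -0.39 ± 0.26 on withdrawal. Their net changes were -0.17 ± 0.20, -0.14 ± 0.20 and -0.35 ± 0.26, with no call. PARK2, the ubiquitin ligase parkin that marks damaged mitochondria, has a pair of member probe sets. The brighter read 673, 669 and 660.3 in RAW, 465, 418 and 384 in -bFGF, and 345, 380 and 499 in +bFGF. RAW was tight and separate, and +bFGF spanned the whole -bFGF range. It changed by -0.66 ± 0.13 and -0.73 ± 0.13, and the dimmer by -0.87 ± 0.12 and -0.83 ± 0.12.

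USP30 removes ubiquitin at mitochondria and counteracts parkin. Its member probe set read 559, 463 and 413 in RAW, 131, 302 and 373 in -bFGF, and 326, 224 and 325 in +bFGF. The spread in -bFGF was wide, and the changes were -0.95 ± 0.30 (SE) and -0.72 ± 0.30, the former -0.50 without -bFGF 1. CBLB, a ligase that dampens receptor tyrosine kinases, read 1470, 1477 and 1311, then 985, 871 and 1095, then 1084.5, 945 and 1142. Its changes were -0.53 ± 0.10 and -0.43 ± 0.10. A dimmer tested CBLB probe set changed by -0.34 ± 0.14 and -0.23 ± 0.14, with no call. KLHL3, the adaptor through which WNK kinases are degraded, read 528, 546 and 525, then 406, 395 and 407, then 360.2, 395 and 438, with changes of -0.40 ± 0.10 and -0.43 ± 0.10. OXSR1, a kinase activated by WNK kinases, changed by -0.55 ± 0.18 and -0.51 ± 0.18, the latter -0.27 without +bFGF 1.

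In lipid and glycan metabolism, ACSL6, which activates long-chain fatty acids, read 1160, 1113 and 881 in RAW, 654, 694 and 712 in -bFGF, and 736, 681 and 740.4 in +bFGF. The RAW arrays were above the others, which overlapped, and the changes were -0.60 ± 0.10 and -0.54 ± 0.10 (SE). ST8SIA1, which makes the ganglioside GD3, changed by -0.49 ± 0.12 and -0.55 ± 0.12 from a RAW mean of 301. ATP11B, a phospholipid flippase, changed by -0.42 ± 0.16 and -0.58 ± 0.16, the former -0.22 without -bFGF 1. GALNT6, which starts O-linked glycans, changed by -0.60 ± 0.16 and -0.48 ± 0.16.

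GABRA3, a subunit of the GABA-A receptor, read 297, 330 and 281 in RAW, 243, 210 and 210 in -bFGF, and 186, 190 and 189 in +bFGF. Its +bFGF arrays lay below all -bFGF arrays, so it was lowest after replacement. The changes were -0.45 ± 0.12 and -0.68 ± 0.12 (SE). DNAJB6, a co-chaperone of HSP70, showed the same order, with 986, 1048 and 930.4, then 701, 748 and 702, then 638, 669 and 655. SELENOW, a small selenoprotein, changed by -0.48 ± 0.16 and -0.70 ± 0.16, GTF2F2, a subunit of the transcription factor TFIIF, by -0.87 ± 0.19 and -0.70 ± 0.19, and LHFPL1, a tetraspan membrane protein, by -0.83 ± 0.17 and -0.65 ± 0.17.

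Several members stood near a limit. The withdrawal change of KLHL3 was -0.403, and AK4 at -0.394 and DNMT1 at -0.390 fell just outside. On the net change the dimmer COL2A1 probe set was inside at -0.405, and BCL7A at -0.393 and MAPK11 at -0.385 were outside. On the difference between -bFGF and +bFGF, MSI1 and USP49 were inside at 0.243, and COL5A1 and COCH were outside at 0.251. On RAW intensity SCN2B was inside at 204 and FBXL16 outside at 199. SCAF8 was inside on the separation of arrays by 0.25%, and a second SDC2 probe set was outside, its lowest RAW array 0.85% below the highest other array. For 6 members the separation was under 5%.

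Other probe sets of the same genes are those that did not meet the rule. The rule was applied to all probe sets, and second ones that met it, as for PARK2 and COL2A1, count as members. The counts below are therefore shaped by the choice and are given as a description. The array holds 75 of them for 38 of the 50 genes, and 42 were bright enough to be tested. On withdrawal 5 of the 42 (11.9%) were called fallen and none risen, against 5.33% fallen in all tested probe sets, with a median change of -0.19. On the net change 5 (11.9%) were called fallen and none risen, against 1.74%, with a median of -0.14. The withdrawal count was 1 without RAW 2, 2 without -bFGF 1 or -bFGF 3, and 3 without RAW 3 or -bFGF 2. The net count was 2 without RAW 2, 6 without +bFGF 1 and 3 without any other single array. Probe sets of a gene share the same RNA samples, so this is no replicate of the experiment.

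Of the 25 such probe sets with a mean of 200 or more, 6 were below RAW by more than 0.25 in both comparisons and 13 lay within 0.2 of RAW in both. The former included 2 brighter PPP3CA probe sets, which changed by -0.39 ± 0.09 and -0.42 ± 0.08 (SE) on withdrawal and by -0.36 ± 0.09 and -0.33 ± 0.08 net and were called in both. The dimmer PPP3CA probe sets changed by -0.18 ± 0.34 and -0.18 ± 0.25 on withdrawal and by -0.39 ± 0.34 and -0.47 ± 0.25 net, with no call. The 6 also included the second SDC2 probe set (-0.59 ± 0.15 and -0.52 ± 0.15, called on withdrawal), a brighter RGCC probe set (-0.27 ± 0.09 and -0.51 ± 0.09, called on the net change), a brighter TMEM135 probe set (-0.52 ± 0.14 and -0.31 ± 0.14, called on withdrawal) and a brighter ATP11B probe set (-0.27 ± 0.10 and -0.54 ± 0.10, called on the net change). A dim GABRA3 probe set was also called on the net change, at -0.90 ± 0.17.

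For other genes the brighter probe sets stayed near RAW. DNAJB6 has brighter probe sets with RAW means of 10307 and 4266, whose changes on withdrawal were 0.06 ± 0.06 (SE) and 0.00 ± 0.07, and on the net change 0.03 ± 0.06 and 0.03 ± 0.07. SELENOW has a probe set at 12135, with changes of -0.18 ± 0.07 and -0.11 ± 0.07. USP30 has probe sets at 714 and 668, both within 0.06 of RAW, and a USE1 probe set at 1213 was also within 0.06. PPM1B at 787 changed by -0.08 ± 0.07 and -0.11 ± 0.07, and the brighter probe sets of AFDN, TRAIP and SCAF8 were not called either. The brightest ATP11B probe set, at 1198, changed by 0.37 ± 0.13 and 0.07 ± 0.13, in contrast to the one called on the net change. Further ATP11B probe sets at 723 and 330 changed by 0.12 ± 0.11 and 0.00 ± 0.14 on withdrawal. Their net changes were -0.13 ± 0.11 and -0.15 ± 0.14, with no call. In all, 12 genes had a brighter probe set that was no member. Which transcripts each probe set detects was not tested.

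**Figure D4:**
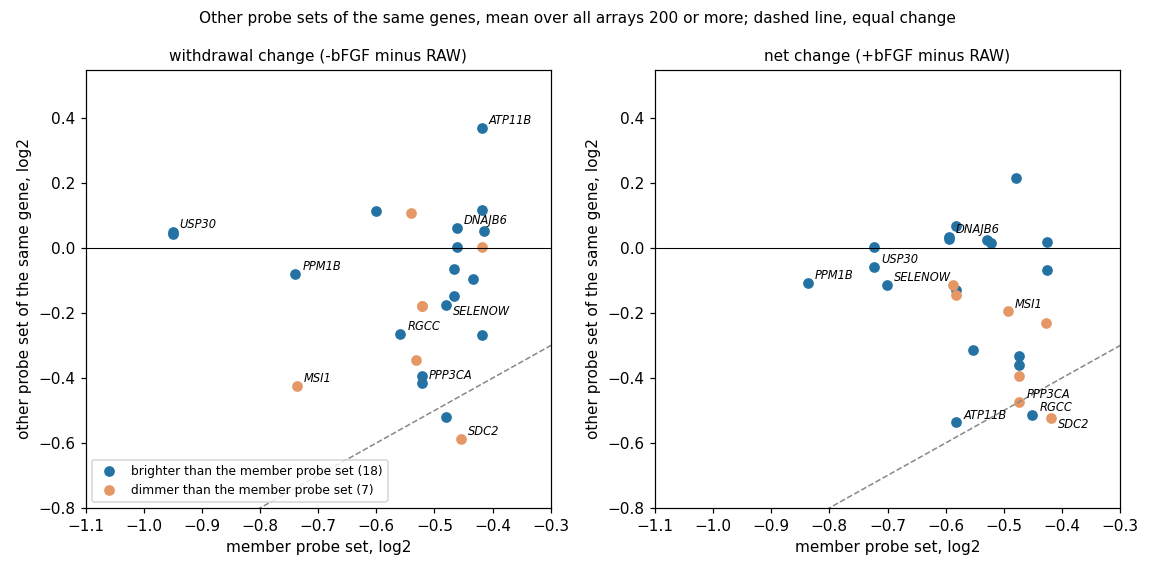
Log2 change of other probe sets of the same genes (y axis) against that of the gene's member probe set (x axis) for the 25 with a mean over all arrays of 200 or more, on withdrawal (left) and net (right). Points for DNAJB6 and USP30 lie near 0 far above the dashed line of equal change, SDC2 lies close to it, and the PPP3CA points are spread, at -0.39, -0.42, -0.18 and -0.18 on withdrawal beside -0.52 for the member.

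The rule was also applied to 2 arrays per group and the chosen probe sets were read in the remaining array of each group. Without the arrays numbered 1, 99 probe sets were chosen, and their median withdrawal change was -0.53 in the arrays that chose them and -0.32 in the arrays left out. Without those numbered 2 it was -0.54 and -0.49 for 78 probe sets, and without those numbered 3 it was -0.54 and -0.31 for 83. The median net change went from -0.53 to -0.24, from -0.51 to -0.34 and from -0.52 to -0.25. In the arrays left out, 68 of 99, 64 of 78 and 55 of 83 were lower than RAW in both comparisons. The shares among the 11645 single-symbol probe sets with a RAW mean of 200 or more were 29.1%, 31.7% and 32.4%. Of the chosen probe sets, 24, 27 and 18 passed -0.4 in both comparisons, beside 1.49%, 2.34% and 1.89% of those 11645. Only 34 of the 99, 35 of the 78 and 31 of the 83 were among the 52 members, so these values describe the rule more than the set. They come from 1 array per group, and both medians were closer to 0 than in the arrays that made the choice.

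Related genes show how far the pattern was shared within families, which were listed after the members were known. Each relative is given by its brightest probe set. Of the p38 kinases and their activators, MAPK11 (p38 beta) followed MAPK14, from 2012 ± 90.4 (SD, n = 3) in RAW to 1322 ± 60.8 in -bFGF and 1545 ± 152 in +bFGF. It was called fallen on withdrawal (log2 -0.61 ± 0.08, SE, limma adjusted p = 0.000198) and on the net change (-0.39 ± 0.08, adjusted p = 0.0178), although the net call was lost without RAW 1, RAW 2, RAW 3 or +bFGF 2, with an adjusted p of up to 0.0623. MAPK12 (p38 gamma) and MAP2K3, the other activator, were not called, at 0.27 ± 0.10 and 0.05 ± 0.11 on withdrawal.

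SFRP1, another secreted frizzled-related protein, had a larger change on withdrawal than SFRP2 and returned in part. It went from 804 ± 88.9 to 305 ± 33.7 and then 504 ± 54.7, with changes of -1.40 ± 0.12 (SE, adjusted p = 4.51e-06) and -0.67 ± 0.12 (adjusted p = 0.00856), and both calls held without each array in turn. TMEFF2 changed by -1.36 ± 0.08 on withdrawal (limma adjusted p = 2.78e-07) and by 0.28 ± 0.08 net (adjusted p = 0.0978), which was called only without +bFGF 3 (adjusted p = 0.0339). Of 4 tested secreted frizzled-related proteins, 2 were called fallen and 1 risen on withdrawal, and 2 fallen and none risen on the net change. Of 2 tested syndecans, SDC2 was called fallen on withdrawal and the other risen. MSI2, the other Musashi gene, was at 0.04 ± 0.07 and 0.09 ± 0.07 and was not called.

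Among the ID genes, ID1 fell on withdrawal (-0.37 ± 0.08, SE, limma adjusted p = 0.00675) and was not called on the net change (-0.12 ± 0.08). ID2 was called only on the net change (-0.29 ± 0.06, adjusted p = 0.019), a call lost without RAW 1, RAW 2, RAW 3 or +bFGF 3. ID4 was not called in either. Of 12 tested cadherins, CDH11 was the only one called fallen on withdrawal and 4 were called risen, among them CDH13 (0.53 ± 0.07, adjusted p = 0.000483) and CDH20 (0.50 ± 0.07, adjusted p = 0.000313), which are further adhesion molecules of the same superfamily. Of 35 tested USP deubiquitinases, 2 were called fallen on withdrawal, the member USP49 and USP44, beside 547 of 9125 genes in all. USP44 went from 5494.5 ± 212 to 3783 ± 84.9 and back to 5206 ± 379, so its level returned. The member probe set of USP49 stayed below RAW, and its change on replacement was not called.

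**Figure D5:**
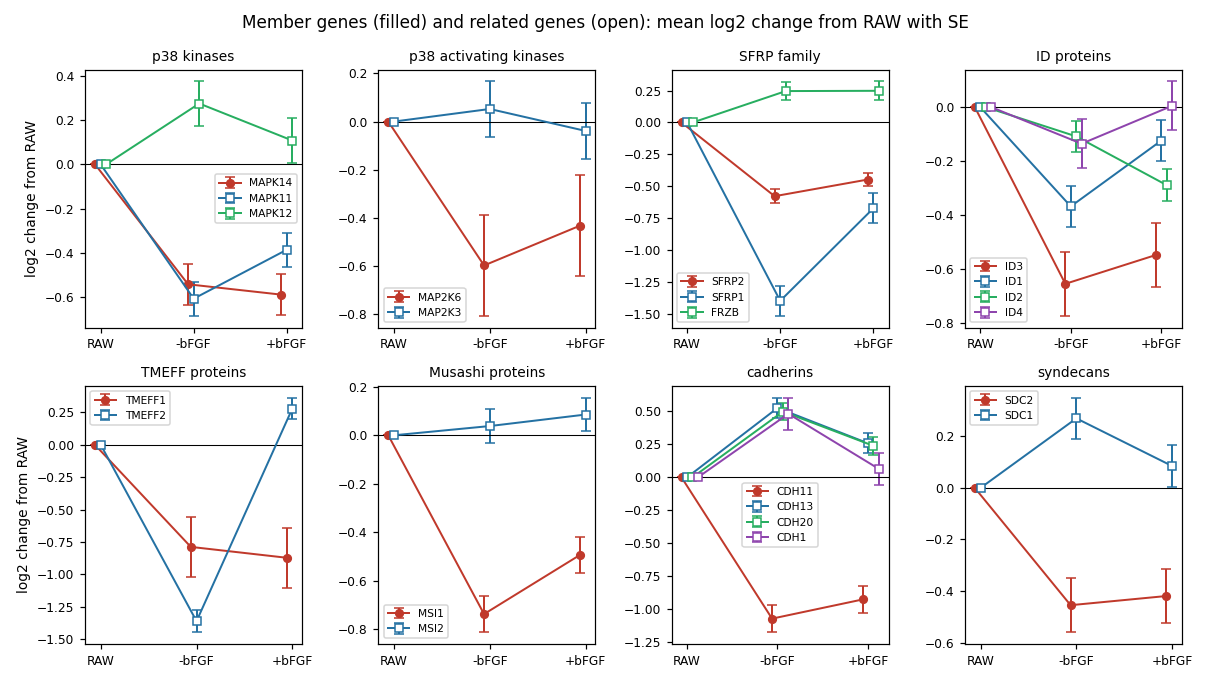
Mean log2 change from RAW (y axis) with SE in RAW, -bFGF and +bFGF for member genes (filled circles) and relatives (open squares) in 8 panels, each relative by its brightest probe set. MAPK11 runs beside MAPK14, TMEFF2 ends above RAW where TMEFF1 stays below it, SFRP1 falls further than SFRP2 and ends below it, and CDH13 and CDH20 rise where CDH11 falls. The net changes of TMEFF1 and TMEFF2 were not called.

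Of 20 tested collagens, 7 were called fallen and none risen on withdrawal, with a median change of -0.33, and 1, COL2A1, was called fallen on the net change, with a median of -0.18. Among 9125 genes tested by their brightest probe set, 547 were called fallen and 623 risen on withdrawal, and 169 fallen and 148 risen on the net change. These counts are the background of every family and list here, and members among them were chosen for having fallen. The withdrawal count was 3 without RAW 2, and the net count was 4 without +bFGF 1 and 0 without RAW 2, RAW 3, +bFGF 2 or +bFGF 3. COL1A2, a chain of type I collagen, changed by -3.18 ± 0.09 (SE, adjusted p = 2.82e-10) from 2385 to 263 and was at 1865 in +bFGF, which was not called on the net change (-0.36 ± 0.09, adjusted p = 0.0637) except without +bFGF 1 (adjusted p = 0.021). A list of 21 tested extracellular matrix genes, which holds AGRN, had 6 fallen and 1 risen on withdrawal and none on the net change. Its median change was nevertheless -0.22 on withdrawal and -0.25 net, beside 0.03 and 0.01 over the 9125 genes. The fallen count was 3 without RAW 2, RAW 3, -bFGF 1 or -bFGF 3, and the net count was 4 without +bFGF 1 and 1 without +bFGF 2. Of 15 tested targets of BMP and TGF-beta signals, 6 were called fallen and 1 risen on withdrawal. ID2 and ID3 were the 2 called fallen on the net change. That net count was 0 without RAW 1, RAW 2 or +bFGF 3 and 1 without RAW 3, +bFGF 1 or +bFGF 2. None of 8 tested genes of ERK negative feedback was a member: 6 fell on withdrawal, and 5 were called risen on the net change, or 3 without RAW 1, RAW 2 or +bFGF 2.

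Values of the other cell types and of RNA quality were as follows. The summed intensity of 12 endothelial markers, with 7 under background (among them CDH5, KDR, TEK and TIE1), was 748 to 816, 618 to 751 and 639 to 838. For 8 erythroid markers, with 4 under background (HBAD, HBZ, HBA1 and SLC4A1), it was 1802 to 1938, 1888 to 2161 and 1863 to 2306. The groups overlapped in all pairs for the erythroid list. Leukocyte markers (12 genes) summed to 656 to 743, 597 to 686 and 605 to 738, and thrombocyte markers (6 genes) to 573 to 721, 716 to 862 and 454 to 504, with 5 and 3 under background. The log2 ratio of the 3′ to the 5′ GAPDH control probe set was -0.07 to -0.05 in RAW, -0.18 to -0.14 in -bFGF and -0.16 to -0.08 in +bFGF, so RAW did not overlap the other groups, as in the members. The same ratio of actin was 0.62 to 0.73, 0.70 to 0.78 and 0.33 to 0.59. The part of these measures in the members' values was not tested.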

How the data were processed

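Total RNA of chicken PGCs was hybridised by the authors to Affymetrix Chicken Genome arrays, with 3 groups of 3. The deposited values are linear intensities, 1 for each probe set on each array, and MAS5 is the tool that the submitters' processing notes name, with no version. The methods name dChip for the study's own comparisons, which are not used here. Each array's trimmed mean (2% of values left out at each end) was 500.1, and array medians lay between 71.3 and 82.3, so no further normalization was applied. The number of arrays limits the precision.

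Of 38535 probe sets, 96 controls were left out. Symbols came from the supplied probe annotation, and the gene IDs of all 50 members were found in the RefSeq table (GRCg7b) with 0 symbols changed. No sequence is printed, and the planned promoter and protein search was not run.

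Intensities were taken to log2 with no offset. Group means over all 9 arrays were fitted in limma 3.58.1 (R 4.3.3) with moderated variances and an intensity trend, on the 19220 probe sets whose mean log2 value reached the median. Withdrawal (-bFGF minus RAW), net change (+bFGF minus RAW) and replacement (+bFGF minus -bFGF) were tested two-sided with Benjamini-Hochberg adjustment, and called means an adjusted p under 0.05. Folds are ratios of geometric means. The fit was tested on simulated data.

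The members and lists were chosen with earlier results of these data known, and the families and roles after the members were known. Named genes were taken from the 20 members with the most negative net change, the 10 brightest, those in a list and up to 6 per role. They were also taken from the 3 nearest each limit on either side, up to 4 called genes per list, and PGC markers. Not every gene in these groups is named. Relatives, MAP2K6 and LFNG were named after their values were seen. Alternatives were quantile normalization, centring at the 75th percentile, an added offset of 50, other filters, no trend, a replicate block, 2 groups only, leaving out each array, and other limits of the rule.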

Additional observations from a re-analysis of the deposited data

How the results depend on the processing

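All 50 genes kept the direction of both changes with an offset of 50, with quantile normalization, with arrays centred at their 75th percentile and without each array in turn (400 values, the last setting by its value farthest from that of all arrays, of which 9 moved by more than 1 SD). The rule puts every RAW array above all the others, so leaving out an array or adding the offset could not reverse a direction. The kept directions are therefore no test of the members. Membership depended more on the settings. It gave 51 probe sets under quantile normalization and 51 under centring, with 43 of the 52 kept in both, and 35 with the offset. Without single arrays it gave 47 to 98 probe sets (45 to 92 genes), and 17 of the 52 were kept without each of the 9 arrays. A limit on the fall of 0.3 gave 135 probe sets (124 genes; median changes -0.45 and -0.41), a limit of 0.5 gave 20 (19 genes; -0.69 and -0.67), a RAW minimum of 100 gave 90 (88 genes; median net change -0.58), and a minimum of 400 gave 29 (27 genes).

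Without single arrays, fallen calls over all probe sets numbered 649 to 1142 on withdrawal and 112 to 366 on the net change, and replacement calls in either direction 765 to 1288. Members called fallen numbered 27 to 44 and 12 to 30. Members called on replacement numbered 0 to 1, and the 1 was MSI1, as it was under centring. The rule was also applied anew without each array. Over the probe sets then chosen, the median change ran from -0.58 to -0.54 on withdrawal and from -0.56 to -0.50 net. Each choice holds only probe sets past the limit on the fall, so these medians do not show how stable the members' own changes were. Net calls were 221 with no filter, 143 with no intensity trend and 218 with only the 2 groups, beside 335. Members called fell to 16 on withdrawal and 17 on the net change with the 75th percentile filter, which tests fewer of them, and to 18 on the net change with no trend. Other probe sets called fallen on withdrawal numbered 3 with no filter, 2 with the 75th percentile filter, 2 with no trend and 1 to 5 without single arrays. On the net change they numbered 3 with no filter, 3 under centring, 2 with no trend, 3 with only the 2 groups and 2 to 6 without single arrays. Fallen matrix genes numbered 3 to 7 on withdrawal and 0 to 4 on the net change without single arrays, and fallen BMP and TGF-beta targets 4 to 6 and 0 to 3, and 0 on the net change with no trend. Except where fewer probe sets or arrays were tested, the cause was not tested.

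The labels number the arrays 1 to 3 in each group. Same-numbered arrays did not deviate together (correlations of deviations from group means -0.21 to 0.06 over 9 pairs). So few pairs cannot show whether same-numbered arrays came from the same culture, and the labels do not say. With the replicate block, net calls fell from 335 to 200, other probe sets called on the net change were 3 and matrix genes 1.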
